A study of Papio anubis and Macaca mulatta with 6 samples.

Results

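The genes described here are 42 genes of the mitotic cell cycle, taken by name as a list. Of the list, 16 genes act in S phase, when DNA is copied, and 26 act in G2 and mitosis (G2/M). By gene symbol, 41 of the 42 were found among the 34178 genes of the baboon annotation and 41 among the 21356 genes of the rhesus annotation: UBE2C was not matched in the rhesus macaque and CCNB2 was not matched in the baboon. In called cells, all 41 had at least 1 UMI (unique molecular identifier, 1 captured RNA molecule) in the baboon and 40 had at least 1 in the rhesus macaque, where CENPA stood at 0.

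A cell that divides first makes cyclin E and the proteins that load and fire replication origins, then copies its DNA, and then raises cyclin A, cyclin B and the kinase CDK1 to enter mitosis. Transcription follows this order, with E2F factors acting at the S-phase genes and the MuvB complex with B-MYB and FOXM1 acting at the G2/M genes, many of which carry a short promoter element called CHR. In the immature testis, Sertoli cells and spermatogonia can both divide. A gene of either list shows RNA mainly while a cell is cycling, although PCNA, RRM1 and the MCM genes are also seen at lower levels in cells that are not.

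The data were single-cell RNA counts of untreated testes, recovered at necropsy, from 2 olive baboons (animal 1 in libraries 1A and 1B, animal 2 in library 2A) and 2 rhesus macaques (animal 1 in library 1A, animal 2 in libraries 2A and 2B). Testes were dispersed with collagenase and then trypsin, with a wash between the digestions that removes interstitial cells, so the cell types are not in the proportions of the tissue. Ages of newborn, 15, 20 and 26 months are stated for the animals, but the sources differ on which species had which ages, so no age is attached to an animal here. The version 3 chemistry was used for baboon 2 and version 2 for the others, so animal, age and chemistry cannot be told apart. Values are given in the order 1A, 1B and 2A for the baboon and 1A, 2A and 2B for the rhesus macaque.

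After cell calling, the libraries held 9572, 5587 and 7920 cells in the baboon and 11156, 7953 and 7345 in the rhesus macaque, with a median of 1445 to 2742 UMIs per cell. Cells were classed by UMIs of marker genes, none of which is a cell cycle gene of the list: 300 germ-like, 12522 Sertoli-like, 5250 stroma-like and 291 endothelial-like cells in the baboon, and 244, 7524, 14834 and 639 in the rhesus macaque. The rhesus germ-like cells were 211, 17 and 16 in the 3 libraries. The Leydig list gated 108 and 546 cells, but CYP17A1, CYP11A1 and HSD3B1 of that list were not matched by symbol in the baboon, and the 108 baboon cells held 9765 UMIs of AMH, a Sertoli gene, against 1256 of INSL3, so they are called cells gated by the Leydig list. Germ-like cells also held Sertoli RNA: the 10 Sertoli markers summed to 693, 1202 and 4820 UMIs per 1000000 UMIs of the class (CPM) in the baboon germ-like cells and to 677, 329 and 302.5 in the rhesus ones, against 9158 to 12688 in Sertoli-like cells. No doublet caller was run, and pairs of libraries shared 1 to 123 cell barcodes.

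The promoters of the S and the G2/M genes differed in the short elements they hold. Promoters were read from the rhesus genome (Mmul_10) at the gene starts of RefSeq annotation release 103, which held all 42 genes, as the 250 bases before and 50 after each start. The CHR letters (TTTGAA or TTTAAA, either strand) were in 18 of 26 G2/M promoters (69.2%) and 1 of 16 S promoters (6.25%), beside 23.5% of all 20782 protein-coding promoters. The E2F letters (TTCCCGCC, TTTGGCGC or TTTCCCGC, either strand, of which the first and the last can overlap) were in 7 of 16 S promoters (43.8%) and 1 of 26 G2/M promoters (3.85%, ASPM), beside 5.09% of all. CCAAT was in 18 of 26 G2/M promoters (69.2%) and 5 of 16 S promoters (31.2%), beside 34.7% of all. A match is a description of the letters and not a site at which a factor was measured.

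**Figure D1:**
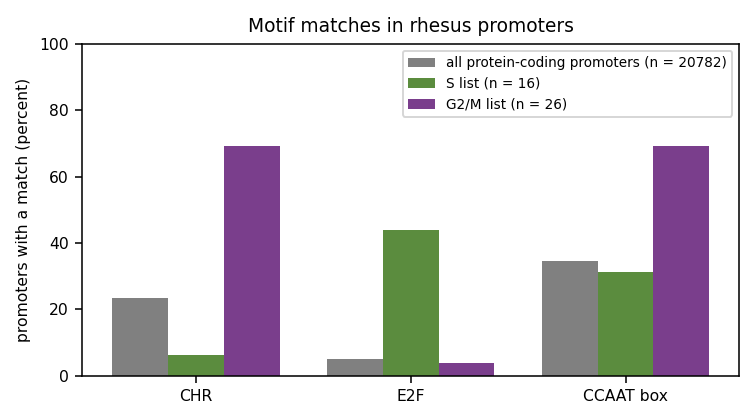
Percent of rhesus promoters (300 bases) that hold the CHR, E2F or CCAAT letters, for the 16 S-phase genes, the 26 G2/M genes and all 20782 protein-coding genes. The CHR and CCAAT bars are highest for the G2/M genes at 69.2%, and the E2F bar is highest for the S genes at 43.8%.

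The promoters of 4 genes are shown because these genes were among the strongest in germ-like cells of both species and hold a match within 100 bases of their start. Capitals mark the CHR letters in the first 3 and the E2F letters in CDT1, on either strand. MKI67 codes for the proliferation antigen Ki-67 (chr9:128554095-128554394, minus strand), PTTG1 for securin (chr6:157807951-157808250, plus strand), CENPE for a kinetochore motor (chr5:101606579-101606878, minus strand) and CDT1 for the factor that loads the MCM helicase on origins (chr20:75823634-75823933, plus strand). Each window spans the start of its gene and so reaches into the first exon.
MKI67: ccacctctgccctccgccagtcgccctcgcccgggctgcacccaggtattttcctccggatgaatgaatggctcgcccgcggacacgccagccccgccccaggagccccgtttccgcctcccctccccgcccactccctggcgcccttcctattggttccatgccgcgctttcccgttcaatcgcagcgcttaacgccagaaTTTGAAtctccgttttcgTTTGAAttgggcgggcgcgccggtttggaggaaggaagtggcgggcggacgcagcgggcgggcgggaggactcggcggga
PTTG1: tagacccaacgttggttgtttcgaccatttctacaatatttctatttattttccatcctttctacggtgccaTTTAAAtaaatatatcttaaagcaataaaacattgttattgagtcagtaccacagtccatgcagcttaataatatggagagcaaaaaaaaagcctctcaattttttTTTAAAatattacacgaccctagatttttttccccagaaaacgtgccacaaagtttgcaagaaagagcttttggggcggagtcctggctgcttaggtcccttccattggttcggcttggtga
CENPE: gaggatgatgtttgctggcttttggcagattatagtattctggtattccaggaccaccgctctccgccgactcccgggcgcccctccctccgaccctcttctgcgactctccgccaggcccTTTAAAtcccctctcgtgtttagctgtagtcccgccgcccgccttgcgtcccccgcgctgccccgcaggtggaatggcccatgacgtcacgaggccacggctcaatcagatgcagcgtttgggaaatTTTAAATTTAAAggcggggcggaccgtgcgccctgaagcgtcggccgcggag
CDT1: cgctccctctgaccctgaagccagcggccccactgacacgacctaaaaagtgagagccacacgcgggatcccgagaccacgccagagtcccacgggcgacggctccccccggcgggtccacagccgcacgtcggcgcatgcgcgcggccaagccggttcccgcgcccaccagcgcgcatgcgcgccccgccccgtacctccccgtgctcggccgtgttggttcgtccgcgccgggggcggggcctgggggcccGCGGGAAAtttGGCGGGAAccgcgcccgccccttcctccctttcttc

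The share of cells with several cell cycle genes was compared after every cell was thinned to 1000 UMIs, so that deeper cells had no more chances to show a gene, and several means at least 3 of the 42. Germ-like cells had the highest share in each of the 6 libraries among the classes of more than 1 cell (the 1 erythroid cell of rhesus 2B held 3 of the genes). In the baboon it was 24.7% (18 of 73 cells), 8.33% (3 of 36) and 8.70% (16 of 184), and in the rhesus macaque 21.7% (44 of 203), 37.5% (6 of 16) and 30.8% (4 of 13). Over the 2 animals of a species the mean was 14.0% ± 7.47 (SD, n = 2) in the baboon and 28.1% ± 9.06 (SD, n = 2) in the rhesus macaque. The 2 baboons stood at 19.3% (exact 95% binomial interval 12.3 to 27.9) and 8.70% (5.05 to 13.7). Library 1A stood above 1B, but the 3 of 36 cells of 1B gave a wide interval (1.75 to 22.5). It holds the values of both animals, so 1B cannot be placed at the level of either. The small rhesus 2 sample gave a wide interval, 34.5% (17.9 to 54.3). These intervals cover counting error only.

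Sertoli-like cells seldom held several of the genes. The share was 0.374% (21 of 5608), 0.430% (15 of 3492) and 0.537% (14 of 2608) in the baboon. It was 0.149% (5 of 3348) in rhesus 1 and 1.85% (30 of 1625) and 1.37% (22 of 1608) in the libraries of rhesus 2. Stroma-like cells were at 0% (0 of 798), 0.214% (1 of 467) and 0.313% (10 of 3196) in the baboon. In the rhesus macaque they were at 0.334% (16 of 4789), 1.30% (50 of 3859) and 1.48% (52 of 3520). In both somatic classes rhesus 2 stood above rhesus 1, with intervals that did not overlap. They were 0.149% (0.0485 to 0.348) against 1.61% (1.20 to 2.10) for Sertoli-like cells. For stroma-like cells they were 0.334% (0.191 to 0.542) against 1.38% (1.13 to 1.68). Each side is 1 animal, and the intervals cover counting error over cells only. Means over the animals were 0.466% ± 0.0998 (SD, n = 2) for Sertoli-like and 0.196% ± 0.165 (SD, n = 2) for stroma-like cells in the baboon. In the rhesus macaque they were 0.879% ± 1.03 (SD, n = 2) and 0.858% ± 0.741 (SD, n = 2). The order of the somatic classes was thus not beyond the spread between animals in the rhesus macaque. In the baboon both Sertoli-like values (0.396% and 0.537%) lay above both stroma-like values (0.0791% and 0.313%), with binomial intervals that overlapped within each animal. With 2 animals against 2, an exact permutation test cannot pass 0.05 and none was run on the shares.

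Other classes gave few such cells. Endothelial-like cells with several genes were 1 of 133 and 0 of 133 in the 2 baboons and 0 of 47 and 1 of 519 in the 2 rhesus macaques. The Leydig list gave 0 of 17 and 1 of 91 in the baboons and 1 of 366 and 2 of 157 in the rhesus macaques. Thinning set much of the level but not which class came first: without it, germ-like cells stood at 82.0% and 65.1% in the 2 baboons and at 73.9% and 84.8% in the 2 rhesus macaques. Sertoli-like cells then stood at 3.89% and 26.0% in the baboons and 3.12% and 6.0% in the rhesus macaques. The median depth of all germ-like cells was 9009, 10054 and 10820 UMIs in the baboon libraries, far above the median over all cells. The gate asks for at least 3 marker UMIs, so shallow germ cells can be left without a class. Thinning does not undo this choice, and the shares describe the gated cells only.

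**Figure D2:**
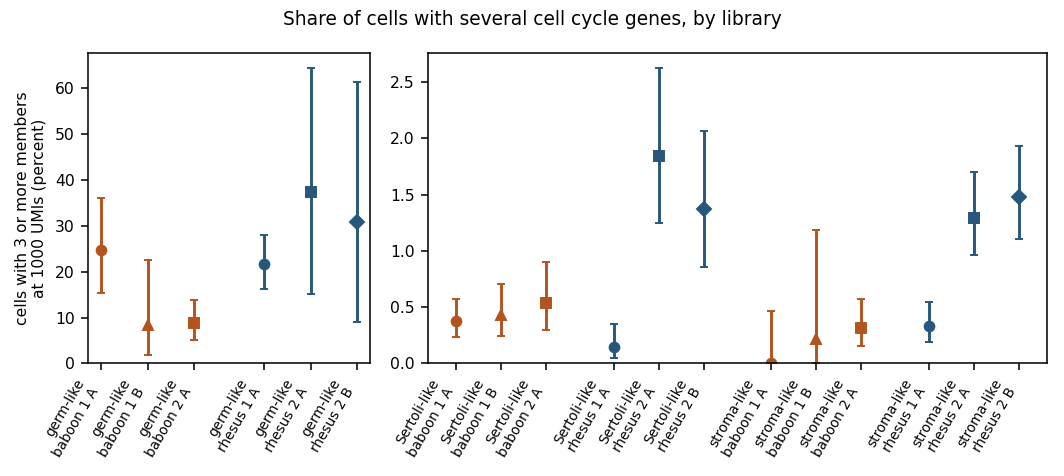
Percent of cells with at least 3 of the 42 genes at 1000 UMIs, by library, for germ-like cells and for Sertoli-like and stroma-like cells, where bars through the points are exact 95% binomial intervals. Germ-like cells lie between 8.33% and 37.5%, and the somatic classes between 0% and 1.85%.

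The number of genes seen in a cell was spread differently in the classes. Of 293 thinned baboon germ-like cells, 135 had none of the genes, 71 had 1, 50 had 2 and 37 had 3 or more, of which 3 had 7 or more. Of 232 rhesus germ-like cells, 53 had none, 72 had 1, 53 had 2 and 54 had 3 or more, of which 7 had 7 or more. At 3, 4, 5 and 6 genes there were 20, 8, 4 and 2 baboon germ-like cells and 25, 14, 4 and 4 rhesus ones. Counts in germ-like cells thus fell or stayed level from 1 gene up to 6, and the open last bin stood above the bin at 6. Rhesus stroma-like cells had 48, 12, 7 and 10 cells at 3, 4, 5 and 6 genes. A further 41 had 7 or more, with up to 15 genes in 1 cell. Baboon Sertoli-like cells had 24, 6, 4 and 3 cells at 3, 4, 5 and 6 genes and 13 at 7 or more, and baboon stroma-like cells had 5 cells at 7 or more and none at 5 or 6. Rhesus Sertoli-like cells held 38 cells with 3 genes and 3 with 7 or more. The last bin is open, so its height is a sum over all higher numbers.

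**Figure D3:**
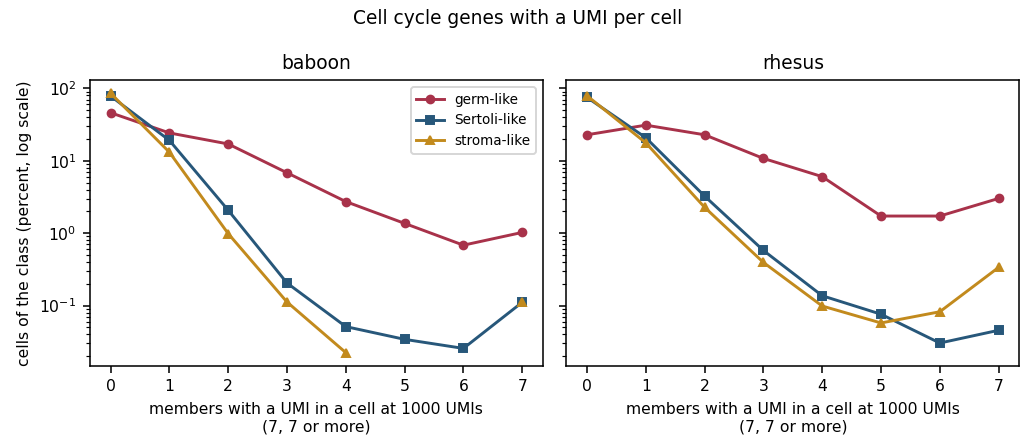
Percent of cells (log axis) against the number of the 42 genes with a UMI at 1000 UMIs per cell, with 7 standing for 7 or more, for germ-like, Sertoli-like and stroma-like cells of each species. Germ-like cells lie highest from 2 genes on, and the rhesus stroma-like line turns up at 7 or more, where it holds 41 cells.

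With animals pooled, germ-like cells with several genes were not deeper (a median of 8960 UMIs before thinning against 11007.5 in the other baboon germ-like cells, and 3675 against 3700 in the rhesus macaque). The animals differed. The median with several genes was 5864 and 11628.5 UMIs in baboons 1 and 2, and 2667.5 and 21907.5 in rhesus 1 and 2. All germ-like cells had medians of 9009, 10054 and 10820 in the baboon libraries, and 3280, 14584 and 13563.5 in the rhesus ones. In rhesus stroma-like cells those with several genes were deeper, 2220.5 against 1574 UMIs, and 23 of the 118 (19.5%) passed the gate of more than 1 class, beside 9.54% of the other stroma-like cells. None of the 50 baboon Sertoli-like cells did. Among baboon germ-like cells 18.9% of those with several genes passed more than 1 gate, beside 39.5% of the others. The part of doublets in these shares was not tested.

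The phase of a cell with several genes was read from whether it held more UMIs of the S or of the G2/M list. With animals pooled, germ-like cells were split nearly evenly, with 16 of 37 on the S side, 16 on the G2/M side and 5 equal in the baboon, and 21, 25 and 8 of 54 in the rhesus macaque. Rhesus 1 had 20, 19 and 5 of 44, while rhesus 2 had 1, 6 and 3 of only 10 cells. Baboon 1 had 10, 9 and 2 of 21, and baboon 2 had 6, 7 and 3 of 16. Many of these calls rested on little: the 2 counts were within 1 UMI of each other in 19 of the 37 and 26 of the 54 cells. Sertoli-like cells leaned to the S list in baboon 1, with 27 of 36 on the S side and 6 on the G2/M side, and in rhesus 2, with 43 of 52 against 7. Of these cells, 19 of the 36 and 32 of the 52 held UMIs of only 1 list. The other animals did not repeat it: baboon 2 had 4 on the S side and 10 on the G2/M side of 14 cells, and rhesus 1 had 2 and 3 of 5. Stroma-like cells of rhesus 2 were split, 45 against 52 of 102, while 13 of the 16 in rhesus 1 were on the S side. Free RNA holds more S-list than G2/M-list UMIs (189 to 287 against 71.4 to 166 CPM over the 6 libraries), and its part in these calls was not tested. The S list also holds genes seen in cells that are not cycling. Among all thinned Sertoli-like cells, PCNA was detected in 5.36% in the baboon and 8.40% in the rhesus macaque, against 0.0256% and 0.0304% for MKI67. Whether such S genes met in cells outside S phase was not tested.

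Over all cells of a class, summed RNA of both lists was higher in germ-like than in Sertoli-like, stroma-like and endothelial-like cells and in cells gated by the Leydig list in every library. Among the small classes, the 1 erythroid cell of rhesus 2B stood higher still for S. The summed 13 cells of the lymphoid list in baboon 1B did so for G2/M, at 2967 CPM. After thinning, only 1 of these 13 cells held several of the genes, and it held 13 of them. The sum therefore does not show a high level across these cells. The lymphoid list held 49.4 CPM of G2/M genes in baboon 1A, 125 in baboon 2A and 205 in rhesus 1A. The G2/M genes summed to 983, 692 and 505 CPM in the baboon germ-like cells and 1374, 1114 and 1080 in the rhesus ones. Sertoli-like cells held 64.2, 73.6 and 117 CPM of the G2/M list in the baboon and 50.8, 124 and 96.0 in the rhesus macaque, and stroma-like cells 36.4, 23.0 and 113, and 48.3, 156 and 187. The free RNA of the same libraries held 71.4, 166 and 90.2 CPM, and 78, 105 and 135 CPM. The G2/M sum of Sertoli-like cells was below that of free RNA in baboon 1A and 1B, rhesus 1A and rhesus 2B, that of stroma-like cells was below it in baboon 1A and 1B and rhesus 1A, and the germ-like sum was above it in each library. The S genes summed to 391 to 771 CPM in baboon and 630 to 935 CPM in rhesus germ-like cells, to 179 to 209 and 209 to 362 CPM in Sertoli-like cells, and to 124 to 138 and 183 to 236 CPM in stroma-like cells. Free RNA held 206, 249 and 224 CPM of the S list in the baboon and 189, 284 and 287 in the rhesus macaque. The stroma-like S sum was below free RNA in each library. The Sertoli-like S sum was below it in each baboon library and above it in each rhesus library, and the germ-like S sum was above it throughout. Such sums cannot tell a larger share of cycling cells from more RNA in each of them.

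**Figure D4:**
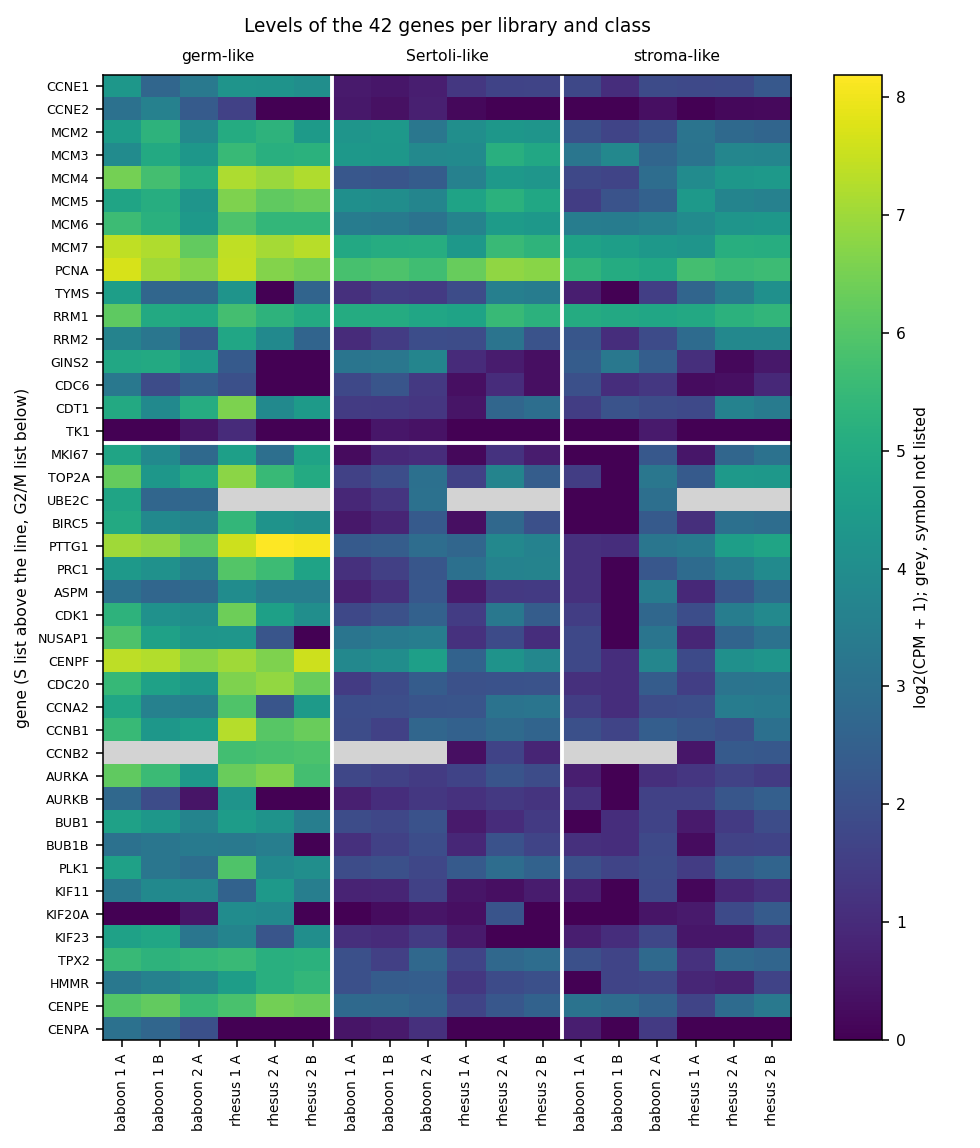
Level of each of the 42 genes as log2(CPM + 1) in germ-like, Sertoli-like and stroma-like cells of the 6 libraries, with grey where a gene was not matched by symbol. Brighter colors are higher levels. The germ-like columns are the brightest for most G2/M genes, while MCM2, MCM3, RRM1 and PCNA are also seen in the somatic columns.

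To compare germ-like with Sertoli-like cells, UMIs were summed per animal and tested with edgeR's quasi-likelihood test over all genes with Benjamini-Hochberg adjustment. Without a filter on low counts, 22 of the 41 genes were higher in baboon germ-like cells and 0 lower, beside 16.4% of all genes higher, and 30 of 40 were higher in the rhesus macaque and 0 lower, beside 14.3% of all genes. With the filter, 31 genes were tested in the baboon and 17 called higher, beside 14.5% of all genes, and 29 were tested in the rhesus macaque and 22 called higher, beside 18.4% of all genes. A gene could pass the filter through germ-like cells alone, so the filtered counts are a description. They comprised 5 of 12 S genes and 12 of 19 G2/M genes in the baboon, and 6 of 12 and 16 of 17 in the rhesus macaque. Without the filter, the median log2 fold change was 2.03 over the 41 baboon genes and 3.33 over the 40 rhesus genes. Over the filtered genes, also a description, it was 2.52 and 3.24, beside 0.10 and 0.02 over all genes that passed the filter. Without library 1A the baboon count fell to 8 of 20, and with cells at several gates left out it was 23. Each fold change below is a log2 difference, germ-like minus Sertoli-like, ± its standard error, with n = 2 animals a class and the adjusted p of this edgeR test. These fold changes and p-values are those of the fit with the filter. For a gene with few UMIs outside germ-like cells, such as CCNB2 or HMMR in the rhesus macaque, they are likewise a description.

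Cyclin E and the origin factors open S phase. CDT1, shown above, stood at 30.6, 13.8 and 32.5 CPM in the baboon germ-like cells against 1.7, 1.61 and 1.47 in the Sertoli-like cells, and 93.2, 13.8 and 20.9 against 0.373, 5.51 and 6.8 in the rhesus macaque. All germ-like values lay above all Sertoli-like values of the same species, and CDT1 rose by 4.08 ± 0.74 (adjusted p = 0.000658) in the baboon and 4.19 ± 1.11 (adjusted p = 0.0114) in the rhesus macaque. CCNE1, cyclin E1, was tested in the rhesus macaque only, at 17.8, 17.3 and 15.6 CPM against 1.49, 2.1 and 2.17, a rise of 3.13 ± 0.80 (adjusted p = 0.00942). In the baboon its levels were 19, 5.51 and 8.97 against 0.503, 0.403 and 0.620 CPM. GINS2, a subunit of the replicative helicase complex, had 29.2, 30.3 and 21.7 against 8.05, 8.47 and 12.1 CPM in the baboon, a difference of 1.27 ± 0.62 (adjusted p = 0.18) that was called with animal as a replicate block (adjusted p = 0.0237). In the rhesus macaque GINS2 held 31 UMIs in all cells. CCNE2, cyclin E2, and CDC6, which loads the helicase with CDT1, were near the floor of detection in rhesus germ-like cells, at 1.98, 0 and 0 and 2.97, 0 and 0 CPM, where 1 UMI was worth 3.46 CPM in 2A and 5.22 CPM in 2B.

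The 6 MCM genes code for the ring of the replicative helicase, but they did not move as a unit. MCM4 had the largest differences, with 89, 52.4 and 32.5 CPM in the baboon germ-like cells against 3.71, 3.43 and 4.18 in the Sertoli-like cells, and 144, 125 and 146 against 11.2, 20.2 and 18.8 in the rhesus macaque. It rose by 3.75 ± 0.71 (adjusted p = 0.00123) and 3.1 ± 0.39 (adjusted p = 0.0003), with no overlap of the classes in either species. MCM7 stood at 168, 149 and 73.3 CPM in the baboon germ-like cells against 29.6, 32.8 and 33.1 in the Sertoli-like cells, and 169, 135 and 156 against 19.5, 45.4 and 38.9 in the rhesus macaque. The difference was 1.83 ± 0.45 (adjusted p = 0.00826) in the baboon and 2.3 ± 0.46 (adjusted p = 0.00268) in the rhesus macaque, again without overlap. MCM6 had 48.1, 35.8 and 20.2 CPM in the baboon germ-like cells against 9.87, 9.47 and 7.67 in the Sertoli-like cells, and 58.5, 41.5 and 41.7 against 11.7, 21.5 and 19.6 in the rhesus macaque, and it rose by 1.8 ± 0.57 (adjusted p = 0.0399) and 1.59 ± 0.44 (adjusted p = 0.0148). MCM5 had 26.2, 33.1 and 18.3 CPM in the baboon germ-like cells against 15.8, 15.2 and 12.2 in the Sertoli-like cells, and 96.1, 72.6 and 78.2 against 25.8, 36.2 and 28.5 in the rhesus macaque. It rose in the rhesus macaque, by 1.46 ± 0.46 (adjusted p = 0.0278), and its difference was 0.67 ± 0.57 (adjusted p = 0.461) in the baboon.

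For MCM2 and MCM3 no difference passed the test. MCM2 had 21.9, 38.6 and 13.5 CPM in the baboon germ-like cells against 18.5, 19.8 and 8.48 in the Sertoli-like cells, and 31.7, 38 and 20.9 against 15.6, 19.2 and 18.2 in the rhesus macaque, and MCM3 had 14.6, 30.3 and 19.1 CPM in the baboon germ-like cells against 19.7, 19.3 and 13.5 in the Sertoli-like cells, and 44.6, 34.6 and 36.5 against 14.2, 34.7 and 29.4 in the rhesus macaque. MCM3 in the germ-like cells of baboon 1A lay below its level in the Sertoli-like cells of 1A and 1B, and the rhesus MCM3 values of the classes met at 34.6 and 34.7 CPM. The differences were 0.47 and 0.76 for MCM2 and 0.15 and 0.76 for MCM3 (adjusted p of 0.69, 0.291, 0.899 and 0.2 in edgeR).

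Of the genes of the replication fork and of nucleotide supply described next, TYMS was called in the baboon and none in the rhesus macaque. PCNA, the sliding clamp, was the S gene with the most UMIs, at 204, 130 and 104 CPM in the baboon germ-like cells against 55.1, 59 and 50.7 in the Sertoli-like cells, and 171, 100 and 88.7 against 76.7, 112 and 106 in the rhesus macaque. The baboon classes did not overlap and the rhesus classes did. The PCNA difference was 1.34 ± 0.46 (adjusted p = 0.0561) in the baboon, called with animal as a replicate block (adjusted p = 0.00147), and 0.46 ± 0.42 (adjusted p = 0.429) in the rhesus macaque. RRM1, the large subunit of ribonucleotide reductase, had 70, 30.3 and 28.4 CPM in the baboon germ-like cells against 31.6, 32.2 and 28 in the Sertoli-like cells, and 52.5, 38 and 31.3 against 26.1, 44.6 and 37.2 in the rhesus macaque, with differences of 0.43 and 0.34 (adjusted p = 0.564 and 0.634). RRM2, its regulated small subunit, differed by 1.67 ± 1.04 (adjusted p = 0.304) and 2.21 ± 1.01 (adjusted p = 0.111), the latter called with the block (adjusted p = 0.0328). TYMS, thymidylate synthase, rose in the baboon by 2.78 ± 0.89 (adjusted p = 0.0408), with 23.3, 5.51 and 5.61 against 1.19, 1.81 and 1.63 CPM. In the rhesus macaque its levels overlapped, 17.8, 0 and 5.22 against 2.73, 10.5 and 9.79 CPM, and the difference was 0.82 ± 0.80 (adjusted p = 0.462). TK1, thymidine kinase, held 30 UMIs in all baboon cells and 1 in all rhesus cells.

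CDK1 and its cyclins drive entry into mitosis. CDK1 stood at 37.9, 16.5 and 15.3 CPM in the baboon germ-like cells against 2.45, 3.12 and 4.88 in the Sertoli-like cells, and 82.3, 24.2 and 15.6 against 1.74, 8.67 and 4.35 in the rhesus macaque. No germ-like value met a Sertoli-like value, and CDK1 rose by 2.53 ± 0.78 (adjusted p = 0.0334) and 3.69 ± 0.92 (adjusted p = 0.00848). CCNB1, cyclin B1, had 45.2, 19.3 and 23.2 CPM in the baboon germ-like cells against 2.77, 2.02 and 5.58 in the Sertoli-like cells, and 156, 65.7 and 78.2 against 4.84, 6.04 and 5.16 in the rhesus macaque. Its rise was 2.84 ± 0.67 (adjusted p = 0.0075) and 4.35 ± 0.52 (adjusted p = 0.000295). CCNB2, cyclin B2, matched in the rhesus macaque only, went from 0.248, 2.1 and 0.815 CPM in Sertoli-like to 51.5, 55.3 and 57.4 CPM in germ-like cells, a rise of 5.88 ± 1.11 (adjusted p = 0.00279) from 13 Sertoli-like UMIs. CCNA2, cyclin A2, had 27.7, 11 and 10.5 CPM in the baboon germ-like cells against 2.83, 2.92 and 3.37 in the Sertoli-like cells, and 59.5, 3.46 and 20.9 against 3.48, 7.62 and 8.15 in the rhesus macaque. CCNA2 rose in the rhesus macaque by 2.67 ± 0.87 (adjusted p = 0.0321), where library 2A had 3.46 CPM, below its Sertoli-like level of 7.62 CPM. In the baboon the difference was 2.29 ± 0.80 (adjusted p = 0.0611), called with the block (adjusted p = 0.00388).

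The mitotic kinases followed in part. AURKA, which matures the spindle poles, had 71.5, 46.8 and 19.8 CPM in the baboon germ-like cells against 2.33, 2.02 and 1.7 in the Sertoli-like cells, and 79.3, 96.9 and 52.2 against 2.11, 3.41 and 2.72 in the rhesus macaque. The classes did not overlap, and AURKA rose by 4.33 ± 0.87 (adjusted p = 0.00181) and 4.82 ± 0.64 (adjusted p = 0.000402), the largest baboon fold change among the genes that passed the filter. BUB1, a checkpoint kinase at kinetochores, had 24.8, 19.3 and 12 CPM in the baboon germ-like cells against 2.77, 2.32 and 3.14 in the Sertoli-like cells, and 21.8, 17.3 and 10.4 against 0.497, 1.05 and 1.63 in the rhesus macaque. BUB1 rose by 2.52 ± 0.80 (adjusted p = 0.0422) and 4.24 ± 1.18 (adjusted p = 0.0149). PLK1, which acts from mitotic entry to cytokinesis, had 24.8, 8.27 and 6.73 CPM in the baboon germ-like cells against 2.77, 3.02 and 2.32 in the Sertoli-like cells, and 59.5, 13.8 and 15.6 against 3.97, 6.57 and 4.89 in the rhesus macaque. It rose in the rhesus macaque by 2.91 ± 0.77 (adjusted p = 0.0117), and in the baboon the difference was 2.2 ± 0.87 (adjusted p = 0.0942), called with the block (adjusted p = 0.00934). AURKB, the kinase of the chromosomal passenger complex, differed by 0.77 ± 1.27 (adjusted p = 0.733) in the baboon, and in rhesus germ-like cells it had 17.8, 0 and 0 CPM.

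Among genes of the checkpoint and of the anaphase-promoting complex, PTTG1 and CDC20 rose in both species. PTTG1, securin, which holds back separase until anaphase, stood at 128, 113 and 70.3 CPM in the baboon germ-like cells against 4.02, 4.33 and 6.66 in the Sertoli-like cells, and 186, 291 and 271 against 5.46, 13.1 and 11.4 in the rhesus macaque. No germ-like value met a Sertoli-like value of its species, and the rise was 4.12 ± 0.94 (adjusted p = 0.00636) and 4.64 ± 0.62 (adjusted p = 0.000373). CDC20, the activator of the complex, had 43.8, 24.8 and 19.4 CPM in the baboon germ-like cells against 1.7, 2.62 and 4.22 in the Sertoli-like cells, and 97.1, 114 and 78.2 against 3.1, 3.15 and 3.26 in the rhesus macaque. It rose by 3.12 ± 0.83 (adjusted p = 0.0153) and 4.82 ± 0.64 (adjusted p = 0.000373). UBE2C, the ubiquitin-conjugating enzyme of the complex, had 26.2, 5.51 and 5.61 against 0.880, 1.41 and 7.36 CPM in the baboon, so that both germ-like libraries 1B and 2A lay below the Sertoli-like level of 2A, and the difference was 1.5 ± 1.24 (adjusted p = 0.448). BUB1B, the checkpoint protein BUBR1, was under the filter in both species, at 7.29, 8.27 and 9.35 and 8.92, 10.4 and 0 CPM in germ-like cells.

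Spindle and kinesin genes rose in varying number. TPX2, which builds spindle microtubules with AURKA, had 45.2, 38.6 and 41.5 CPM in the baboon germ-like cells against 2.95, 1.92 and 5.73 in the Sertoli-like cells, and 45.6, 34.6 and 36.5 against 2.24, 5.78 and 6.52 in the rhesus macaque. Its rise was 3.29 ± 0.75 (adjusted p = 0.00518) and 3.24 ± 0.91 (adjusted p = 0.0174), with no overlap. KIF23, a kinesin of the midzone, rose in the baboon by 3.54 ± 0.99 (adjusted p = 0.0213) with 24.8, 27.6 and 8.23 against 1.13, 1.01 and 1.67 CPM. HMMR, a spindle protein, rose in the rhesus macaque by 3.68 ± 0.83 (adjusted p = 0.00653) with 22.8, 34.6 and 41.7 against 1.49, 2.63 and 2.99 CPM. PRC1, which bundles midzone microtubules, had 20.4, 16.5 and 10.5 CPM in the baboon germ-like cells against 1.19, 1.92 and 3.6 in the Sertoli-like cells, and 63.4, 48.4 and 26.1 against 7.08, 11.3 and 11.7 in the rhesus macaque. PRC1 rose in the rhesus macaque by 2.42 ± 0.49 (adjusted p = 0.00279), and the baboon difference was 2.48 ± 0.95 (adjusted p = 0.087), called with the block (adjusted p = 0.00617). NUSAP1, a microtubule-binding protein, had 58.3, 24.8 and 18.3 CPM in the baboon germ-like cells against 8.11, 9.37 and 10.2 in the Sertoli-like cells, and 18.8, 3.46 and 0 against 1.24, 2.63 and 1.09 in the rhesus macaque. It differed by 1.73 ± 0.82 (adjusted p = 0.164) in the baboon (block, adjusted p = 0.0148). ASPM, a spindle pole protein, and the kinesins KIF11 and KIF20A did not pass the filter in either species, with ASPM at 7.29, 5.51 and 5.98 and 14.9, 10.4 and 10.4 CPM in germ-like cells.

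At the centromere, CENPE, shown above, had 62.7, 74.4 and 44.5 CPM in the baboon germ-like cells against 6.03, 5.75 and 4.96 in the Sertoli-like cells, and 56.5, 86.5 and 78.2 against 2.24, 3.68 and 4.89 in the rhesus macaque. CENPE rose by 3.28 ± 0.62 (adjusted p = 0.00105) and 4.31 ± 0.82 (adjusted p = 0.00245). CENPF, a large kinetochore protein, had 163, 152 and 105 CPM in the baboon germ-like cells against 13, 15.2 and 23.5 in the Sertoli-like cells, and 128, 96.9 and 188 against 4.97, 17.3 and 12.8 in the rhesus macaque. CENPF rose by 2.79 ± 0.68 (adjusted p = 0.00859) and 3.66 ± 0.74 (adjusted p = 0.00271), and no germ-like value of either gene met a Sertoli-like one. CENPA, the centromeric histone, was at 7.29, 5.51 and 2.99 CPM in baboon germ-like cells and did not pass the filter. MKI67 had 26.2, 13.8 and 5.98 CPM in the baboon germ-like cells against 0.189, 0.907 and 1.05 in the Sertoli-like cells, and 23.8, 6.92 and 26.1 against 0.124, 1.31 and 0.544 in the rhesus macaque. Its rise of 4.1 ± 1.33 (adjusted p = 0.0481) in the baboon and 5.1 ± 1.3 (adjusted p = 0.00956) in the rhesus macaque was drawn from few Sertoli-like UMIs. TOP2A, the enzyme that untangles replicated DNA, stood at 75.8, 19.3 and 30.7 CPM in the baboon germ-like cells against 2.01, 2.82 and 7.16 in the Sertoli-like cells, and 107, 45 and 31.3 against 1.99, 12.1 and 4.35 in the rhesus macaque. TOP2A rose by 3.16 ± 1.03 (adjusted p = 0.046) and 3.87 ± 1.11 (adjusted p = 0.0175). BIRC5, survivin, differed by 2.96 ± 1.19 (adjusted p = 0.104) and 3.73 ± 1.36 (adjusted p = 0.0534), called with the block in both species (adjusted p = 0.00334 and 0.00136).

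**Figure D5:**
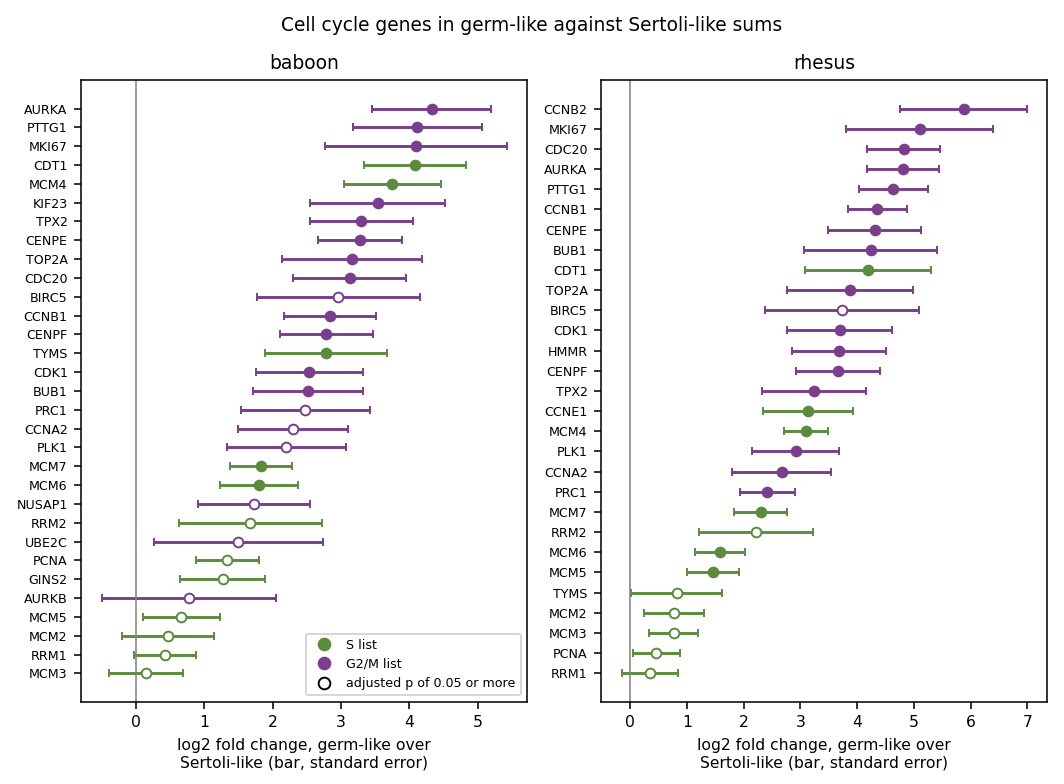
Log2 fold change of germ-like against Sertoli-like sums, with bars of 1 standard error, for the genes that passed the filter in the baboon and the rhesus macaque (green for S, purple for G2/M, filled where called at an adjusted p under 0.05). All plotted values lie above 0, from 0.15 (MCM3) to 4.33 (AURKA) in the baboon and from 0.34 (RRM1) to 5.88 (CCNB2) in the rhesus macaque. A gene could pass the filter through germ-like cells alone, so the plotted set is a description.

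Other genes of the pathway, from lists that hold no gene of the 42, were read in the same fit of germ-like against Sertoli-like cells, where 14.5% of all genes were higher in the baboon and 18.4% higher and 14.3% lower in the rhesus macaque. With 6 to 10 genes tested per list, 1 or 2 called genes of a list are near these shares. Of the G1 cyclins and kinases, 1 of 8 tested rose in the baboon and 3 of 6 in the rhesus macaque, and in both this included CCND1, cyclin D1 (5.12 ± 0.78 (adjusted p = 0.000142) and 3.33 ± 0.74 (adjusted p = 0.00478)). Of the CDK inhibitors and pocket proteins, 1 of 8 rose in the baboon (CDKN1C, coding for p57, 3.4 ± 0.77 (adjusted p = 0.00446)). In the rhesus macaque 1 of 7 rose and 3 fell: CDKN2B, coding for p15, by 8.64, and RB1, CDKN1A (p21) and CDKN1B (p27) by -3.23, -1.99 and -1.15. Of the E2F, MuvB and FOXM1 regulators, 3 of 7 rose in the baboon (E2F1 4.07, MYBL2 3.38, E2F6 1.75) and 4 of 7 in the rhesus macaque (MYBL2 4.55, LIN9 2.16, E2F6 2.07, TFDP2 1.97). MYBL2 codes for B-MYB, the partner of MuvB at CHR promoters. Checkpoint and CDK1 control genes rose in 3 of 9 in the baboon and 4 of 9 in the rhesus macaque, with CKS2, a small CDK-binding protein, at 3.52 and 5.24. Of the chromatin and cytoskeleton genes of dividing cells, 2 of 10 rose in the baboon and 2 of 9 in the rhesus macaque, with SMC2, a condensin subunit, at 1.98 and 2.83.

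Comparing Sertoli-like with stroma-like cells, edgeR called 0 of 31 genes of the list tested in the baboon and 0 of 29 in the rhesus macaque. Of all genes tested, 14.0% were called in the baboon and 15.1% in the rhesus macaque. At an unadjusted p under 0.05 there were 2 in the baboon and 3 in the rhesus macaque, and DESeq2 called none. The values closest to a call were those of helicase genes. MCM2 stood at 18.5, 19.8 and 8.48 CPM in baboon Sertoli-like cells and 2.98, 2.19 and 3.14 in stroma-like cells, a difference of 2.06 ± 0.72 (adjusted p = 0.068), and at 15.6, 19.2 and 18.2 against 7.8, 5.89 and 5.31 CPM in the rhesus macaque, a difference of 1.21 ± 0.51 (adjusted p = 0.138). MCM5 had 15.8, 15.2 and 12.2 against 1.79, 3.28 and 4.77 CPM in the baboon, a difference of 1.73 ± 0.59 (adjusted p = 0.0596). In each of the 6 libraries MCM2 and MCM5 were higher in Sertoli-like cells. With animal as a replicate block both were called in the baboon (adjusted p = 0.00356 and 0.00439), and 4 genes were called in the rhesus macaque: MCM2, MCM3 and MCM5 higher and PTTG1 lower. MKI67 differed by -2.81 ± 1.2 (adjusted p = 0.145) in the rhesus macaque, with 0.124, 1.31 and 0.544 against 0.416, 5.48 and 7.44 CPM. Among the other genes of the pathway, CDKN1C fell by 6.13 in the baboon and 3.81 in the rhesus macaque on the log2 scale. Of the CDK inhibitors and pocket proteins, 1 of 8 was lower in the baboon, and 1 of 7 was higher and 2 lower in the rhesus macaque. Of the G1 cyclins and kinases 1 of 8 was lower in the baboon. Of the checkpoint and CDK1 control genes 1 of 9 was higher in the rhesus macaque. A single call in a list is near the share over all genes.

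Between endothelial-like and stroma-like cells edgeR called 1 of 29 genes of the list tested in the rhesus macaque and 0 of 31 in the baboon. The rhesus count of 1 is near the share of all genes given next. MCM4 was lower in the rhesus macaque, at 4.44, 1.77 and 8.07 CPM against 14.4, 19.2 and 20.8 CPM, a difference of -1.91 ± 0.51 (adjusted p = 0.0275), beside 4.50% of all genes lower. The classes did not overlap in the 3 libraries, but the call was lost without library 2A. With animal as a replicate block PTTG1 was called as well, at 4.44, 3.54 and 3.03 CPM against 9.36, 23.3 and 26.7 CPM in the rhesus macaque, a difference of -2.33 ± 0.80 (adjusted p = 0.0824) without the block and an adjusted p of 0.00266 with it. In the baboon edgeR called none, beside 11.8% of all genes in either direction, with 0 at an unadjusted p under 0.05 and 0 by DESeq2. MCM4 was at 0, 0 and 2.43 against 2.39, 2.19 and 6.52 CPM there. CCND1 was higher in endothelial-like than in stroma-like cells of both species, by 2.93 and 3.92. Of the G1 cyclins and kinases, 1 of 8 was called higher in the baboon and 1 of 6 in the rhesus macaque. Other calls were 1 of 8 CDK inhibitors and pocket proteins higher in the baboon and 1 of 9 checkpoint genes lower in the rhesus macaque. Chromatin and cytoskeleton genes were lower in 1 of 10 and 1 of 9. Of all genes, 11.8% and 11.4% were called in either direction. For the Leydig list against stroma-like cells, edgeR called none in either species, beside 4.71% and 1.84% of all genes, with 1 gene at an unadjusted p under 0.05 in each (MCM5 and PRC1) and 0 by DESeq2.

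Within the somatic classes the G2/M genes were seen together. Among thinned baboon Sertoli-like and stroma-like cells, TOP2A was detected in 23.9% of the 46 cells with at least 2 other G2/M genes and in 0.123% of the 15410 cells with none. NUSAP1 was detected in 51.3% of 39 such cells against 0.530%, and PTTG1 in 28.9% of 45 against 0.233%. In the rhesus macaque TOP2A was detected in 43.4% of 99 cells against 0.242%, CDK1 in 36.6% of 101 against 0.298% and MKI67 in 22.6% of 106 against 0.0113%. Over the list, 25 of 25 G2/M genes and 12 of 16 S genes were detected more often beside other G2/M genes in these baboon cells, and 24 of 25 and 12 of 16 in the rhesus ones. The S genes varied. TYMS was in 13.0% of 46 against 0.0910% of baboon cells and 20.4% of 108 against 0.507% of rhesus cells, and RRM2 in 8.70% against 0.110% and 17.6% against 0.378%. PCNA was in 10.9% against 4.74% of baboon cells and 24.1% against 5.73% of rhesus cells. MCM2 was in 0 of 46 against 1.29% of baboon cells, which allows a share of up to 6.52%, and in 1.85% against 0.908% of rhesus cells. In germ-like cells, 19 of 25 G2/M and 10 of 16 S genes were detected more often beside other G2/M genes in the baboon, and 22 of 25 and 10 of 16 in the rhesus macaque. Genes detected in neither group are in these totals and count as not higher. Of the G2/M list they were CENPA in rhesus somatic cells, and KIF11, KIF20A and CENPA in rhesus germ-like cells. In baboon germ-like cells they were AURKB, BUB1B, KIF11 and KIF20A, while ASPM and CCNB1 were detected less often. NUSAP1 was in 14.3% of 35 germ-like cells against 0.549% in the baboon, PRC1 in 11.6% of 43 against 0.926% in the rhesus macaque, and PTTG1 in 17.2% of 29 cells against 6.70% in the baboon and 23.5% of 34 against 18.9% in the rhesus macaque. These shares describe the cells and were not tested.

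Genes outside the list were then compared between cells with several of the 42 genes and the other cells of the same class, in the classes with at least 10 such cells in both animals. Germ-like cells met this minimum too, and no gene was called there in either species (0 of 13239 and 0 of 8407, with 1013 and 176 at an unadjusted p under 0.05). The 42 genes chose the cells and get no test here. In baboon Sertoli-like cells (36 and 14 cells in the 2 animals), 65 other genes were higher and 0 lower of 13202 (0.492%). In rhesus stroma-like cells (16 and 102 cells), 71 were higher and 0 lower of 11595 (0.612%). A gene could pass the filter through the cells with several genes alone, and such a gene could only be called higher. The sums of these few cells also left little power to call a gene lower. The counts by direction are therefore a description. With animal as a replicate block the counts were 242 (201 higher) and 278 (220 higher). Of the called genes 28 were the same, 43.1% of the baboon and 39.4% of the rhesus genes.

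The 28 shared genes included the transcription factor FOXM1 (5.71 ± 0.81 in the baboon and 7.26 ± 0.93 in the rhesus macaque), the abscission protein CEP55 (8.51 ± 1.22 and 7.56 ± 1.16) and the checkpoint protein MAD2L1 (4.28 ± 0.42 and 4.3 ± 0.55). NDC80 and NUF2, subunits of the kinetochore complex that binds microtubules, rose by 6.64 ± 0.87 and 5.34 ± 0.59 in the baboon and 4.36 ± 0.71 and 7.17 ± 0.51 in the rhesus macaque. Cytokinesis was represented by ECT2 and RACGAP1, condensin by NCAPG and SMC2, and the replication clamp by PCLAF (7.07 ± 0.69 and 7.0 ± 0.89). CDKN2C, the CDK4 and CDK6 inhibitor p18, was also higher, by 3.15 ± 0.36 and 3.48 ± 0.57. These examples were chosen after their values were seen. PKMYT1, CDCA3, CDCA8, GTSE1, HJURP, KIF20B, KIFC1, TACC3, UBE2T, ZWINT, PBK, PSRC1, SGO2, SHCBP1, RAD51AP1, DIAPH3 and PARPBP completed the shared set. The pathway lists were also chosen with earlier results of these data known. From them, 8 genes were called in the baboon (CDC25C, FOXM1, E2F1, WEE1, MAD2L1, HMGB2, CDKN2C and SMC2) and 9 in the rhesus macaque (FOXM1, MYBL2, CKS2, MAD2L1, SMC2, LMNB1, CDKN2C, CDKN2D and H2AFZ). In the order of the lists above, these were 0 of 8, 1 of 8, 2 of 13, 3 of 13 and 2 of 10 tested in the baboon. In the rhesus macaque they were 0 of 6, 2 of 8, 2 of 11, 2 of 11 and 3 of 9. The depth of the cells moved with the choice, with a median of 3107.5 UMIs against 2616.5 in the baboon and 2220.5 against 1574 in the rhesus macaque, and its part in the result was not tested.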

How the data were processed

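The values were UMI counts of single testis cells, whole numbers per gene and barcode. The authors made the deposited counts with Cell Ranger 3.1.0 on Panubis1.0 (baboon) and Mmul_10 (rhesus macaque), per the labels and the methods, and deposited all barcodes without normalization or cell calling. Libraries held 16875294 to 49803025 UMIs. No mitochondrial gene was listed. Data of other species in the study were not analysed here.

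Cells were called by a rule rebuilt after Cell Ranger (UMI cutoff from percentile 99 of the top 5000 barcodes divided by 10, then a profile test of barcodes with at least 500 UMIs against free RNA, ranks 45001 to 90000, with 10000 simulations and an adjusted p of at most 0.01; at least 200 genes). A cell was classed at 3 or more UMIs of 2 or more markers of a list and at least 3 times the level expected if 0.2 of its UMIs were free RNA (0.5 added to both). Shares used cells thinned to 1000 UMIs, with exact Clopper-Pearson 95% intervals. For an observed 0 the limit was 3 counts.

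Sums per animal and class with at least 10 cells in both animals were tested per species in 1 fit (edgeR 4.0.16, quasi-likelihood, TMM, filterByExpr, Benjamini-Hochberg adjustment at 0.05, R 4.3.3). The p-values rest on the spread between these 2 animals within a class, as an estimate shared by all classes of the fit. Animals pair the classes: same-animal deviations correlated at 0.0929 to 0.735 over 8 baboon classes and 0.136 to 0.620 over 7 rhesus classes, and the fit with animal as a block was an alternative. Other alternatives were DESeq2 1.42.0 and its size factors, no filter, sums per library, other gates, other thinning and libraries left out. The scripts (Python 3.11.15, numpy 2.4.6, scipy 1.17.1) were tested on simulated data. The members, marker lists and pathway lists were chosen with earlier results of these data known, and the gate was set after seeing the data. All 42 genes are accounted for. Those described with values per library are the 10 of each list with the highest mean CPM, MKI67, TOP2A, CDK1 and PCNA, and any gene called with a log2 fold change over 2 in size, and further genes of the list were added for the role they fill.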

Additional observations from a re-analysis of the deposited data

Results flagged for a closer look

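In rhesus 1, 6.35% of the cells of the lymphoid list held several of the 42 genes at 1000 UMIs (4 of 63), a class that no comparison used. Cells of no class held several in 0.463% of baboon 1, 1.15% of baboon 2, 3.29% of rhesus 1 and 1.74% of rhesus 2 cells. For BUB1, the mean of Sertoli-like minus stroma-like cells was 1.61 CPM in the 2 baboons and -0.424 CPM in the 2 rhesus macaques. Both animals of a species were on the same side, but on few UMIs. Rhesus 1 had 4 Sertoli-like against 5 stroma-like UMIs, and the stroma-like cells of baboon 1A and 1B had 0 and 1. TPX2 went the other way, with Sertoli-like minus stroma-like means of -0.220 CPM in the baboon and 0.758 CPM in the rhesus macaque. The difference between the species was not tested for either gene.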

How the results depend on the processing

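As a mean of the 2 animals, the germ-like share stayed above the Sertoli-like, stroma-like, endothelial-like and Leydig-list shares of its species in all alternatives. In rhesus 2 alone it did not: it was 0 of 29 cells at 5 genes and 0 of 33 at 500 UMIs (upper 95% bounds of 11.9% and 10.6%), below its Sertoli-like (0.278% and 0.569%) and stroma-like shares (0.745% and 0.621%). The level moved with the depth and the number of genes asked for. Means of the animals in percent, for baboon germ-like, Sertoli-like and stroma-like and then rhesus germ-like, Sertoli-like and stroma-like cells, were 31.1, 2.38, 1.19, 44.1, 4.15 and 3.03 at 2 genes, 35.3, 1.64, 1.04, 61.9, 3.84 and 3.87 at 2000 UMIs, and 73.5, 14.9, 1.35, 79.4, 4.56 and 1.71 without thinning. In the same order they were 3.57, 0.247, 0.0782, 3.69, 0.154 and 0.404 at 5 genes, and 3.575, 0.311, 0.128, 4.27, 0.353 and 0.346 at 500 UMIs. By the UMI cutoff alone the baboon Sertoli-like and stroma-like shares were 0.607 and 0.530. Leaving out libraries in turn gave 8.51 to 19.3 (baboon germ-like), 0.396 to 0.483 (Sertoli-like), 0.0791 to 0.264 (stroma-like), 26.2 to 34.5 (rhesus germ-like), 0.759 to 1.61 (Sertoli-like) and 0.815 to 1.38 (stroma-like).

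Germ-like against Sertoli-like, the baboon count of 17 was 11 by DESeq2 and 11 at 2 marker UMIs (added after seeing the data), 24 with the replicate block, and 8 to 18 over libraries left out. The rhesus count of 22 was 14 with sums per library (17 tested) and 18 to 22 over libraries left out. Sertoli-like against stroma-like, the baboon count of 0 was 1 at 2 marker UMIs, 1 at 5 marker UMIs, 1 with sums per library, 2 with the replicate block, 2 without a filter and 3 without cells at several gates, and the rhesus count of 0 was 4 with the block, 1 without a filter and 3 with sums per library, and both stayed at 0 over libraries left out. Endothelial-like against stroma-like, the baboon 0 was 1 without a filter, and the rhesus 1 was 2 with the block, 3 without a filter, 2 with sums per library and 0 to 1 over libraries left out (0 without 2A). For the Leydig list the baboon 0 was 1 with the block and 2 without a filter. Outside the list, the 65 and 71 genes were 196 and 147 by DESeq2, 242 and 278 with the block, 164 and 207 without a filter, and 45 to 73 and 52 to 55 over libraries left out. The cause of these moves was not tested. The replicate block changed no other count of the 42 genes by over 1.5 times, and it took the germ-like contrast of cells with several genes against the others from 0 to 93 in the baboon.

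The baboon MCM3 difference between germ-like and Sertoli-like cells turned to -0.063 at 2 marker UMIs, -0.091 without cells at several gates and -0.19 without a filter, and the RRM1 difference lay at -0.27 to 0.72 over libraries left out (-0.27 without 1A), neither past the test. Of 567 values of 55 differences (30 named genes) under alternatives, 515 stayed on their side of the threshold in the same direction, 30 lost and 18 gained the call. Baboon 2A and rhesus 1A are the only library of their animal and could not be left out of a test. Rhesus 2 had 33 germ-like cells, which limits the precision of its values. They were also deep, with medians of 14584 and 13563.5 UMIs in 2A and 2B against 1450 and 1445 over all cells. Shallow germ cells with under 3 marker UMIs stay without a class. The part of this choice in the germ-like values was not tested.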

Other observations

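Germ-like cells with several of the 42 genes were also compared with the other germ-like cells for genes outside the list, a contrast chosen after seeing the data. By edgeR's quasi-likelihood test with Benjamini-Hochberg adjustment 0 of 13239 genes were called in the baboon and 0 of 8407 in the rhesus macaque, with 1013 and 176 genes at an unadjusted p under 0.05. With animal as a replicate block, 93 were called in the baboon, 2 higher and 91 lower in the cells with several genes, and 0 in the rhesus macaque (253 at an unadjusted p under 0.05). AMH, a Sertoli marker left out of these counts, differed in the baboon by -3.94 ± 0.65 on the log2 scale (adjusted p = 0.159), and by -3.77 ± 0.49 with the block (adjusted p = 0.000634). KIT, the receptor that marks differentiating spermatogonia, stood at 22.4 and 21.3 CPM in the cells with several genes of the 2 baboons (4 UMIs in each) against 6.90 and 2.42 CPM in the others (6 UMIs in each). In the rhesus macaques KIT stood at 8.48 and 29.6 CPM (2 and 6 UMIs) against 10.4 and 18.2 CPM (8 and 5 UMIs). UTF1, a gene of undifferentiated spermatogonia, was at 510 and 597 CPM against 702 and 332 CPM in the 2 baboons, so the animals went opposite ways. NANOS3, like UTF1 a marker of the germ list, was higher in the cells with several genes of both baboons (230 and 96.0 against 129 and 37.1 CPM) and of rhesus 1 (284 against 107 CPM), and lower in rhesus 2 (39.4 against 222 CPM). In baboon 2 these cells were also higher in DDX4 (240 against 79.8 CPM), PIWIL4 (128 against 31.4) and ID4 (272 against 123). SOHLH1 (320 against 75.7), DMRT1 (149 against 67.7) and FGFR3 (32.0 against 19.3) were higher there too. In baboon 1, DDX4 (112 against 133) and ID4 (499 against 509) were lower and the others higher. SOHLH1 was lower in both rhesus macaques (280 against 408 and 108 against 146). PIWIL4 was lower in both too, on 0 and 1 UMIs against 6 and 2. DMRT1 was higher in rhesus 1 (76.3 against 27.4 CPM) and lower in rhesus 2 (14.8 against 32.8 CPM). ID4 was lower in rhesus 1 (322 against 460 CPM) and higher in rhesus 2 (370 against 313 CPM). DDX4 went the same ways as ID4. Baboon germ-like cells with several genes also passed more than 1 gate less often (18.9% against 39.5%). The part of this and of the AMH difference in these levels was not tested.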
